A study of Homo sapiens with 6 samples.

Results

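Expression of 10 genes that license origins of DNA replication was examined in COV434 cells after 4HC, an activated form of the alkylating drug cyclophosphamide (CTX) that needs no conversion by the liver. They were found by their symbols among the 16798 genes of the deposited table, and all 10 were present and passed the filter on low counts. They are MCM2, MCM3, MCM4, MCM5, MCM6 and MCM7, the subunits of the replicative helicase ring, CDC6 and CDT1, which load the ring, MCM10, which acts on the loaded helicase, and GMNN, which encodes geminin, the inhibitor of CDT1. The 3 control samples carry the genotype label WT and no treatment label. The 3 samples labelled CTX came from cells given 15 µM 4HC, for 24 h according to the labels. All 6 samples are bulk RNA of 1 established human cell line, and no source says whether the replicates were grown separately, so p-values measure only the spread between these samples, which may be technical. COV434 is called a granulosa cell line in the labels, although it has since been described as a line of small cell carcinoma of the ovary, hypercalcemic type. Of 12 granulosa markers looked for, 11 were in the table and 3 reached 1 TPM in control. FSHR, FOXL2 and CYP19A1 stood at 0 to 0.11 TPM in every sample, AMH at 3.94 to 6.73 TPM and HSD17B1 at 19.2 to 24.6 TPM. Summed over the list, the markers gave 24.2 to 33.3 TPM in control and 28.0 to 29.3 TPM after 4HC. Of the chromatin remodelling ATPases whose loss marks that carcinoma, SMARCA2 stood at 0 to 0.07 TPM and SMARCA4, the defining one, at 6.27 to 8.5 TPM, so that its RNA was present in every sample. Protein was not measured, so whether SMARCA4 protein was lost was not tested.

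Before S phase the origin recognition complex marks an origin, and CDC6 and CDT1 join it to place a pair of inactive MCM rings around the DNA. This licensing is allowed only from the end of mitosis to the end of G1. Later in the cycle geminin binds CDT1, and CDT1 is also degraded during replication and after DNA damage, so that an origin is used only once per cycle. At the start of S phase the kinases CDK2 and CDC7, with a set of firing factors, add CDC45 and the GINS complex to the ring, which turns it into the active helicase. Many of these genes are transcribed in late G1 by E2F factors. An alkylating agent such as 4HC damages DNA, and replication is one of the processes that the damage obstructs.

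The sequences before the start of 3 of the genes are shown because CDT1 had the largest rise of the 10 genes, MCM6 was the one that fell, and GMNN encodes the inhibitor of CDT1. They are the 250 bases upstream of a RefSeq start on GRCh38.p14, written in the direction of the gene. Capitals mark CCAAT, the letters bound by NF-Y, the E2F letters TTTCCCGC, TTTCGCGC, TTTGCCGC or TTTGGCGC, and the CHR letters TTTGAA or TTCGAA, each on either strand.
CDT1, chr16:88803539-88803788, plus strand: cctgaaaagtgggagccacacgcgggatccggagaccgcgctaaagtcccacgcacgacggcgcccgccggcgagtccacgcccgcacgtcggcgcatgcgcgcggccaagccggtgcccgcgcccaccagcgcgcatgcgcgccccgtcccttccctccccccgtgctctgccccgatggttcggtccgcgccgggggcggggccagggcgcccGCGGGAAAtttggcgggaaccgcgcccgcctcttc
MCM6, chr2:135876444-135876693, minus strand: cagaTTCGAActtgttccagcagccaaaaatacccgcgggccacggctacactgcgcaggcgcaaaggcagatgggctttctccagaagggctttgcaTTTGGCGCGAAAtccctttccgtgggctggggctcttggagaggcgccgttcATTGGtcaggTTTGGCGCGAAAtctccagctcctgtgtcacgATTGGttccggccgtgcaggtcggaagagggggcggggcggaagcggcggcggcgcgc
GMNN, second of 2 listed starts, chr6:24775163-24775412, plus strand: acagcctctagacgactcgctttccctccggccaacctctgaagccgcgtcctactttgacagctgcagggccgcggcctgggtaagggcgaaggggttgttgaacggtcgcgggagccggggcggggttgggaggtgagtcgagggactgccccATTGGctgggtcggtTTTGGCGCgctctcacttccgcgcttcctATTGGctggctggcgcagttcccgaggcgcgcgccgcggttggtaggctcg

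In the CDT1 window the E2F letters lay at -35 to -28 from the start, on the strand opposite to the gene. The MCM6 window held 4 matches of E2F letters, which formed 2 stretches because TTTGGCGC and TTTCGCGC overlapped on opposite strands at each place, the first match at -152 to -145 and the third at -90 to -83. In the GMNN window 1 match lay at -80 to -73, between CCAAT matches at -95 to -91 and -51 to -47. The window of the other GMNN start, which adjoins the gene start given in the deposited table, held no E2F, CCAAT or CHR letters and is not printed, so the window shown was chosen for its matches. RefSeq windows were at hand for 8 of the 10 genes, 11 windows in all because GMNN has 2 and MCM7 has 3. E2F letters were found in 5 of the 11 windows, those of CDT1, GMNN, MCM3, MCM6 and MCM7, against 2.79% of all 35116 windows. CCAAT was found in 8 of the 11 windows against 32.0% of all windows. A match is a string of letters and not a bound site. Only the listed E2F letters were searched, so a window without them may hold other forms. Both the gene with the largest rise and the gene that fell had E2F letters in their window.

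Levels were compared between genes as TPM, which is scaled to length. In control cells MCM7 was the highest of the 10 at 184 ± 4.33 TPM (SD, n = 3), followed by MCM3 at 127 ± 2.83 TPM and MCM6 at 109 ± 5.56 TPM. MCM10 was the lowest at 20.8 ± 1.32 TPM, and CDT1 was next at 26.8 ± 1.9 TPM. Neighbours in this order did not overlap between control samples, apart from GMNN (66.4 to 70.7 TPM) and MCM2 (64.2 to 67.3 TPM). After 4HC MCM7 and MCM3 were still the highest and MCM10 the lowest. MCM6, which had followed MCM3 in control, was now below MCM4 and GMNN as well, and CDT1 at 52.4 ± 1.62 TPM overlapped MCM5 at 53.9 ± 3.01 TPM. The expected counts behind these levels were between 607 (CDT1 in control replicate 1) and 4988 (MCM7 in 4HC replicate 1) per sample.

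Of the 10 genes, 7 rose after 4HC and 1 fell, at an adjusted p-value under 0.05 in edgeR's quasi-likelihood test over all 12368 genes tested. Both directions together, 80.0% of the 10 genes were called, against 36.4% of all genes tested. Rises alone were 70.0% against 19.2% of all genes, and falls 10.0% against 17.1%. The median log2 fold change of the 10 genes was 0.26, and that of all genes was 0.0047. The groups did not overlap in 8 of the 10 genes, against 45.3% of all genes, with 23.4% of all genes entirely higher and 21.9% entirely lower. Of the 10 genes, 0 reached a fold change of 2 by edgeR or by DESeq2, the threshold in the study's methods, which 1.15% of all genes passed together with an unadjusted p-value under 0.05 in edgeR. RNA of whole cultures was measured, so a larger share of cells in the phase that uses these genes and more of their RNA per cell cannot be told apart.

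**Figure D1:**
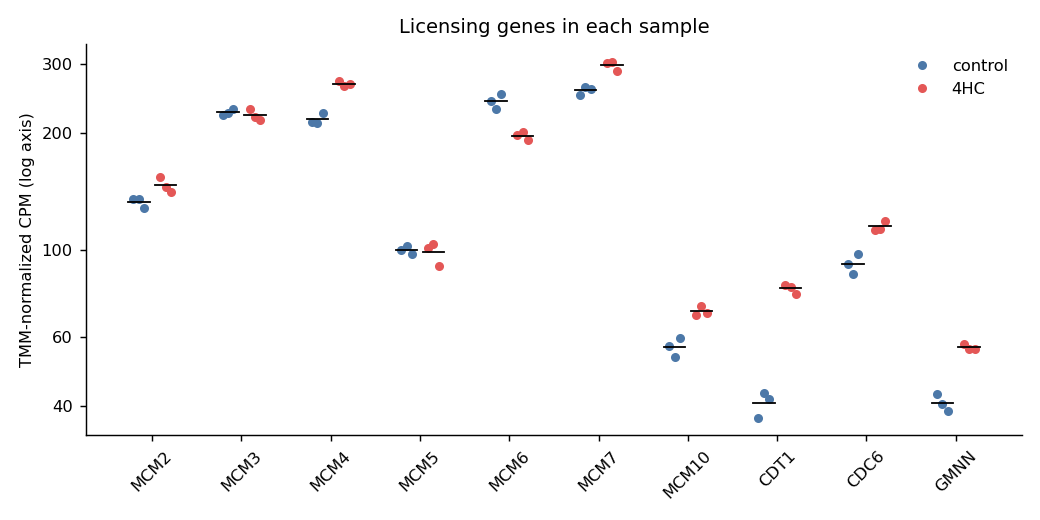
TMM-normalized CPM (log axis) of each licensing gene in the 3 control samples and the 3 samples given 4HC, with 1 point per sample and a line at each mean. CDT1 shows the widest gap, from 37.4 to 43.2 CPM in control to 77.5 to 81.8 CPM after 4HC, and MCM6 is the one gene of the 10 whose 3 samples with 4HC all lie below the controls.

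The loading factor CDT1 brings the MCM ring to the origin. Its expression was 37.4, 43.2 and 41.6 CPM in control replicates 1 to 3 and 81.8, 80.7 and 77.5 CPM in 4HC replicates 1 to 3. CPM is the count scaled to the library's total with TMM factors, and is not scaled to gene length. Every sample with 4HC was far above every control. CDT1 rose by 0.97 ± 0.051 on the log2 scale (SE, edgeR adjusted p = 5.69e-22), a fold change of 1.96 with a 95% interval of 1.83 to 2.11. CDT1 was in place 138 of the 12368 genes when ordered from the largest rise. It lies on chromosome 16 from 88803789 to 88809258 of GRCh38. Its fold change was just under the threshold of 2 and passed it without control replicate 2, the highest control (log2 fold change 1.02).

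CDC6, the ATPase that works with CDT1 in loading, was measured at 92.2, 87.3 and 98.0 CPM in control and at 113, 113 and 119 CPM after 4HC. The groups did not overlap, but the rise was smaller than that of CDT1. Its log2 fold change was 0.32 ± 0.043 (SE, edgeR adjusted p = 3.92e-08). CDC6 lies on chromosome 17 from 40287878 to 40304657.

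GMNN, the gene of geminin, rose as well. It was measured at 43.0, 40.4 and 38.9 CPM in control and at 57.6, 56.0 and 55.9 CPM after 4HC. The samples of each group lay close together and the groups were well separated. The log2 fold change of GMNN was 0.47 ± 0.053 (SE, edgeR adjusted p = 1.96e-10), which was the second largest of the 10 genes. Its place is chromosome 6 from 24774937 to 24786099.

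MCM10 helps the loaded helicase to start and stays with the moving fork. MCM10 was measured at 56.9, 53.4 and 59.8 CPM in control and at 68.4, 72.3 and 69.4 CPM after 4HC. All samples with 4HC were above the controls. Its log2 fold change was 0.30 ± 0.049 (SE, edgeR adjusted p = 1.38e-06), close to that of CDC6. MCM10 lies on chromosome 10 from 13161558 to 13211110.

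The 6 subunits of the ring, which is built with 1 copy of each, changed unequally. MCM4, which with MCM6 and MCM7 forms the core that has helicase activity by itself, was measured at 213, 212 and 225 CPM in control and at 272, 263 and 266 CPM after 4HC. The groups did not overlap, and the log2 fold change was 0.30 ± 0.035 (SE, edgeR adjusted p = 5.24e-10). MCM7 was measured at 249.97, 262 and 259 CPM in control and at 301, 304 and 288 CPM after 4HC. This rise was smaller but again without overlap, with a log2 fold change of 0.21 ± 0.034 (SE, edgeR adjusted p = 1.56e-06). MCM2, a subunit that also binds histones, was measured at 135, 135 and 128 CPM in control and at 154, 145 and 141 CPM after 4HC. Its log2 fold change of 0.14 ± 0.040 (SE, edgeR adjusted p = 0.00322) was the smallest of those that passed the test. The call of MCM2 was lost without 4HC replicate 1, its highest sample (log2 fold change 0.10, adjusted p = 0.0588, edgeR).

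MCM6 went the other way. It was measured at 241, 230 and 251 CPM in control and at 197, 201 and 192 CPM after 4HC. The 3 samples with 4HC were all below the lowest control. The log2 fold change of MCM6 was -0.29 ± 0.036 (SE, edgeR adjusted p = 3.98e-09), a fold change of 0.818 with a 95% interval of 0.777 to 0.860. MCM6 lies on chromosome 2 from 135839626 to 135876443, and no other gene of the RefSeq annotation overlapped it. The deposited coordinates list NDUFA10 over most of chromosome 2, MCM6 included, and NDUFA10 had a log2 fold change of -0.01 (edgeR adjusted p = 0.871).

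MCM3 and MCM5 did not pass the test. MCM3 was measured at 222, 225 and 230 CPM in control and at 229, 220 and 215 CPM after 4HC. MCM5 was measured at 101, 102 and 98.0 CPM in control and at 102, 104 and 91.4 CPM after 4HC. In both genes the groups overlapped. The 95% interval of the fold change was 0.935 to 1.03 for MCM3 (adjusted p = 0.596, edgeR) and 0.929 to 1.05 for MCM5 (adjusted p = 0.793, edgeR), so changes within these bounds are not excluded.

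**Figure D2:**
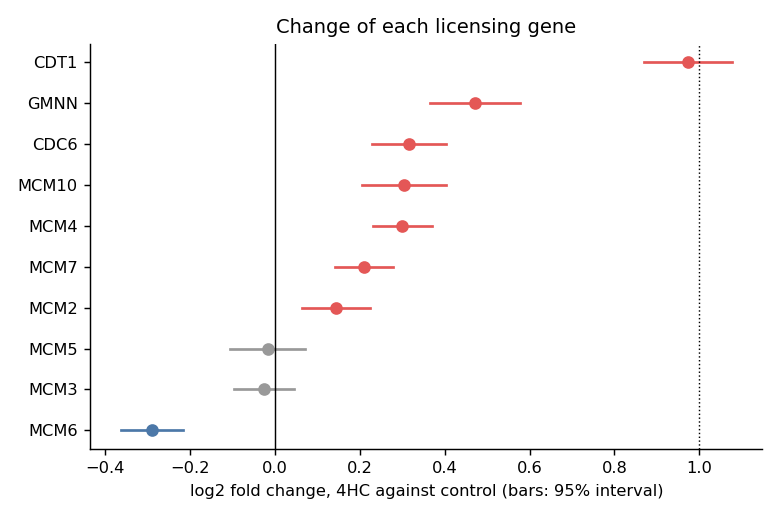
Log2 fold change of each licensing gene between 4HC and control, with its 95% interval, in red for rises and blue for falls at an adjusted p-value under 0.05 and in grey otherwise. The dotted line marks a fold change of 2. CDT1 at 0.97 stands apart from GMNN at 0.47, and MCM6 at -0.29 is on the other side of zero.

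In the order of the log2 fold changes, CDT1 exceeded GMNN, the next gene, by 0.50 (95% interval 0.358 to 0.647, with both standard errors combined as if independent). GMNN exceeded CDC6 by 0.16 (95% interval 0.022 to 0.289). The next 3 genes, CDC6, MCM10 and MCM4, were not separated from each other. The difference was 0.01 between CDC6 and MCM10 (95% interval -0.117 to 0.139) and 0.0043 between MCM10 and MCM4 (95% interval -0.113 to 0.122). MCM4 was not separated from MCM7 either (difference 0.09, 95% interval -0.006 to 0.185), nor MCM7 from MCM2 (difference 0.07, 95% interval -0.036 to 0.169). At the lower end MCM3 exceeded MCM6 by 0.26 (95% interval 0.165 to 0.363).

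The unequal changes moved the make-up of the ring's RNA more than its amount. The summed TPM of MCM2 to MCM7 was 623, 624 and 643 in control and 679, 661 and 642 after 4HC. These sums overlapped between the groups, with means of 630.3 ± 11.1 and 661 ± 18.8 (SD, n = 3). MCM6 made up 17.5%, 16.5% and 17.7% of the sum in control and 13.1%, 13.6% and 13.4% after 4HC, so that its share was lower in every sample with 4HC. The share of MCM7 went from 29.2% ± 0.566 to 32.1% ± 0.361 and that of MCM4 from 14.2% ± 0.305 to 16.6% ± 0.416. The share of MCM3 went from 20.1% ± 0.103 to 18.8% ± 0.25, although MCM3 had not itself passed the test. Apart from MCM2, no subunit's shares overlapped between the groups. Each of these 5 differences had an exact permutation p of 0.1, two-sided, the smallest that 3 samples against 3 can give, and 0.125 when adjusted over the 10 shares and ratios tested, so none could pass a threshold of 0.05.

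**Figure D3:**
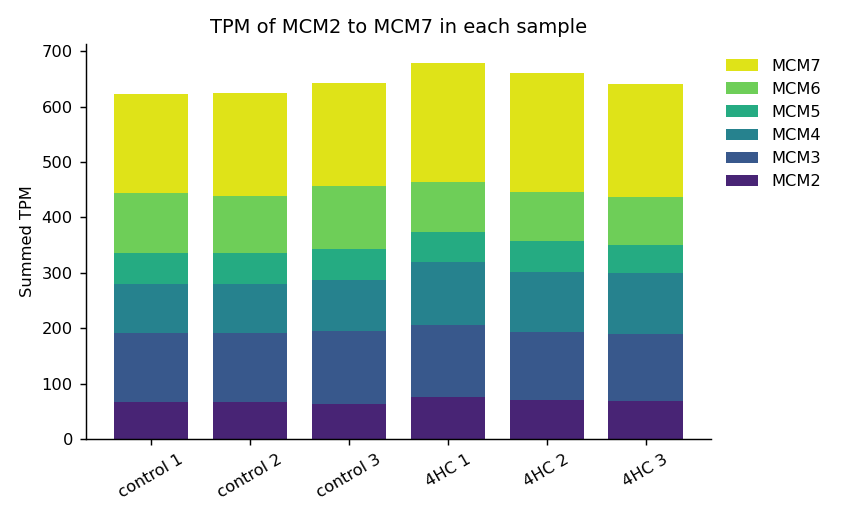
Deposited TPM of the 6 ring subunits, stacked from 0 for each of the 6 samples. The height of a bar is the summed TPM, between 623 and 679, and the MCM6 layer is thinner in the 3 samples with 4HC (13.1% to 13.6% of the bar) than in the 3 controls (16.5% to 17.7%).

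The loader was set against its inhibitor within each sample. The log2 ratio of CDT1 to GMNN in TPM was -1.52, -1.26 and -1.27 in control and -0.82, -0.80 and -0.85 after 4HC. Both genes had risen, CDT1 by more, and the ratio was higher in every sample with 4HC. It corresponds to 0.392 CDT1 transcripts per GMNN transcript in control and 0.565 after 4HC (exact permutation p = 0.1, two-sided, adjusted p = 0.125). The log2 ratio of CDC6 to GMNN was between -0.64 and -0.43 in control and between -0.77 and -0.63 after 4HC, and here the groups overlapped (exact permutation p = 0.2, two-sided). The ratio of CDT1 to CDC6 went from 0.575 to 0.917, without overlap (exact permutation p = 0.1, two-sided). The log2 ratio of MCM10 to the mean of the ring subunits went from -2.22 ± 0.075 to -1.97 ± 0.058, also without overlap (exact permutation p = 0.1, two-sided).

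The authors also deposited expected counts for 31 transcripts of the 10 genes, and 27 of these could be tested among 42216 transcripts. Of these 27 transcripts 3 passed, against 546 of all 42216 tested (1.29%). They were NM_030928 of CDT1 (log2 fold change 0.97, adjusted p = 0.00472), NM_182746 of MCM4 (0.31, adjusted p = 0.0206) and NM_005915 of MCM6 (-0.29, adjusted p = 0.0411), in edgeR's quasi-likelihood test over all transcripts. CDT1 and MCM6 had no other transcript in the table, so that their gene values rest on 1 transcript each, and NM_182746 held 97.6% of the TPM of MCM4 in control. No transcript of the 10 genes passed in the direction opposite to its gene. These calls were not stable, and 0 remained with the replicate number as a block, without control replicate 3 or without 4HC replicate 2. The spread between replicates, as edgeR's common coefficient of variation, was 0.724 for transcripts and 0.0277 for genes, which limits the transcript test.

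No transcript of the other genes passed the transcript test. NM_005916 held most of MCM7, with 173 TPM in control and 199 TPM after 4HC. The reads of CDC6 were divided between the predicted transcript XM_011525541, with 33.4 TPM in control and 40.01 TPM after 4HC, and NM_001254, with 12.8 and 16.9 TPM. GMNN was divided between NM_001251989, with 36.2 and 47.7 TPM, and NM_015895, with 24.8 and 35.2 TPM. Both main transcripts of CDC6 and of GMNN were therefore higher after 4HC. MCM10 had 2 transcripts, of which NM_018518 went from 13.6 to 17.7 TPM and NM_182751 from 7.18 to 7.86 TPM. MCM5 was split nearly evenly in control between XM_006724242 at 27.7 TPM and NM_006739 at 27.3 TPM, and after 4HC these stood at 26.3 and 27.5 TPM. Their order varied within each group, with NM_006739 at 47.9% to 52.3% of MCM5 in control and 44.9% to 55.6% after 4HC. NM_002388 of MCM3 was at 119 and 117 TPM, and NM_004526 of MCM2 at 66.0 and 72.5 TPM. Most exons are common to the transcripts of a gene and the counting assigns such reads by estimate, so these values are less certain than those of the genes. Introns of MCM7 hold the microRNA genes MIR25, MIR93 and MIR106B, whose small RNAs were not measured. In RefSeq 604 bases of MCM7 overlap AP4M1, which had a log2 fold change of 0.08 (adjusted p = 0.495, edgeR).

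A list of 44 other genes of licensing and origin firing was looked at beside the 10. Of the 42 that could be tested, 19 rose and 5 fell, or 57.1% against the 36.4% of all genes. Their median log2 fold change was 0.09. Rises made up 45.2% of the list, against 19.2% of all genes, and falls 11.9%, against 17.1%.

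Among the 6 subunits of the origin recognition complex, which marks the place of loading, 2 rose and 0 fell. Rises were 33.3% against 19.2% of all genes, and falls 0% against 17.1%. Both directions together, the called share of 33.3% was close to the 36.4% of all genes. ORC6 went from 47.5 ± 1.47 to 62.2 ± 2.1 CPM (log2 fold change 0.39, adjusted p = 8.95e-09, edgeR) and ORC1 from 29.1 ± 1.72 to 35.5 ± 1.45 CPM (log2 fold change 0.29, adjusted p = 0.000139, edgeR). ORC1 is the subunit whose level changes most over the cell cycle. The other 4 did not pass, with log2 fold changes of -0.11 for ORC2, 0.10 for ORC3, 0.07 for ORC4 and -0.13 for ORC5. Among 5 chromatin partners and MCM-like proteins, 1 rose, a share of 20.0% that is close to the 19.2% of all genes. It was MCM8, a relative of the ring subunits that acts in recombination (log2 fold change 0.32, adjusted p = 3.6e-07, edgeR).

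Of 11 genes that control or degrade CDT1, CDC6 and geminin, 2 rose and 4 fell. The rises were 18.2% of this group, close to the 19.2% of all genes, and the falls were 36.4%, against 17.1% of all genes. DTL, which brings CDT1 to the CUL4 ubiquitin ligase during S phase and after damage, went from 78.8 ± 2.21 to 114 ± 4.55 CPM (log2 fold change 0.53, adjusted p = 6.34e-15, edgeR). CDC20, an activator of the anaphase-promoting complex in mitosis, went from 104 ± 1.12 to 65.7 ± 3.62 CPM (log2 fold change -0.66, adjusted p = 1.25e-17, edgeR). This was the largest fall of the list. The scaffolds of the ubiquitin ligases had smaller falls, with log2 fold changes of -0.18 for CUL4A and -0.14 for CUL4B, which carry DTL, and -0.11 for CUL1, which carries SKP2 (edgeR adjusted p = 0.000251, 0.00105 and 0.0243). The fall of CUL1 was lost in 3 of the 12 alternatives tried, among them library size only and leaving out control replicate 3. CCNF, which directs CDC6 to degradation, was the other rise, at 0.14 with an adjusted p of 0.0490 in edgeR, and its call was lost in 9 of the 12 alternatives. SKP2 itself, which also marks CDT1 for degradation, did not pass (log2 fold change 0.09, edgeR adjusted p = 0.230). DDB1, RBX1, SKP1 and FZR1 of this group did not pass either. Their log2 fold changes were -0.0054, 0.05, -0.07 and -0.03 (edgeR adjusted p = 0.913, 0.469, 0.122 and 0.664).

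All 5 firing factors rose (100%, against 19.2% of all genes), with log2 fold changes from 0.16 to 0.57. RECQL4, a helicase-like protein needed to start replication, had the largest of these rises, from 44.995 ± 2.54 to 66.8 ± 2.45 CPM (log2 fold change 0.57, adjusted p = 2.59e-13, edgeR). MTBP and TICRR, which work as partners in loading CDC45, had log2 fold changes of 0.40 and 0.22 (edgeR adjusted p = 1.03e-05 and 0.000731). DONSON, which brings the GINS complex to the ring, had a log2 fold change of 0.35, and TOPBP1, a scaffold of both firing and checkpoint signalling, one of 0.16 (edgeR adjusted p = 7.22e-09 and 0.00266). Of the 5 helicase partners 4 rose and 0 fell, or 80.0% and 0%, against 19.2% and 17.1% of all genes. GINS4, a subunit of the GINS complex that joins the ring, went from 50.7 ± 0.471 to 78.9 ± 1.81 CPM (log2 fold change 0.64, adjusted p = 2.17e-16, edgeR), the largest rise of the list. Its partners GINS1 and GINS3 had log2 fold changes of 0.50 and 0.36 and CDC45 one of 0.33 (edgeR adjusted p = 9.57e-13, 0.000116 and 1.18e-06). GINS2 did not pass (log2 fold change 0.07, edgeR adjusted p = 0.325).

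Of the 7 kinase genes 4 rose and 1 fell, or 57.1% and 14.3%, against 19.2% and 17.1% of all genes. CCNE2, a cyclin that activates CDK2 at the start of S phase, went from 22.4 ± 0.222 to 33.9 ± 1.4 CPM (log2 fold change 0.60, adjusted p = 3.2e-11, edgeR). CDK2, its kinase, went from 91.0 ± 0.907 to 123 ± 3.7 CPM (log2 fold change 0.44, adjusted p = 7.2e-13, edgeR). The other cyclins of this group, CCNE1 and CCNA2, had higher CPM than CCNE2 and did not pass. Their log2 fold changes were 0.11 and 0.09 (edgeR adjusted p = 0.111 and 0.0984). CDC7, the other kinase of firing, had a log2 fold change of 0.18, and DBF4B, one of its activators, one of 0.32 (edgeR adjusted p = 0.00206 and 1.19e-05). DBF4, the main activating subunit of CDC7, had a log2 fold change of -0.15 (adjusted p = 0.0276, edgeR), and this call was lost in 6 of the 12 alternatives, DESeq2 and library size only among them, and without either of control replicates 1 and 3 or 4HC replicates 1 and 2. Among 3 genes of MCM unloading, TRAIP, a ubiquitin ligase that removes the helicase from stalled or converging forks, rose (log2 fold change 0.48, adjusted p = 1.64e-05, edgeR). This 1 rise was 33.3% of the unloading genes, against 19.2% of all genes, and the other 2 were not called. The geminin relatives GMNC and MCIDAS had too few counts for a test.

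**Figure D4:**
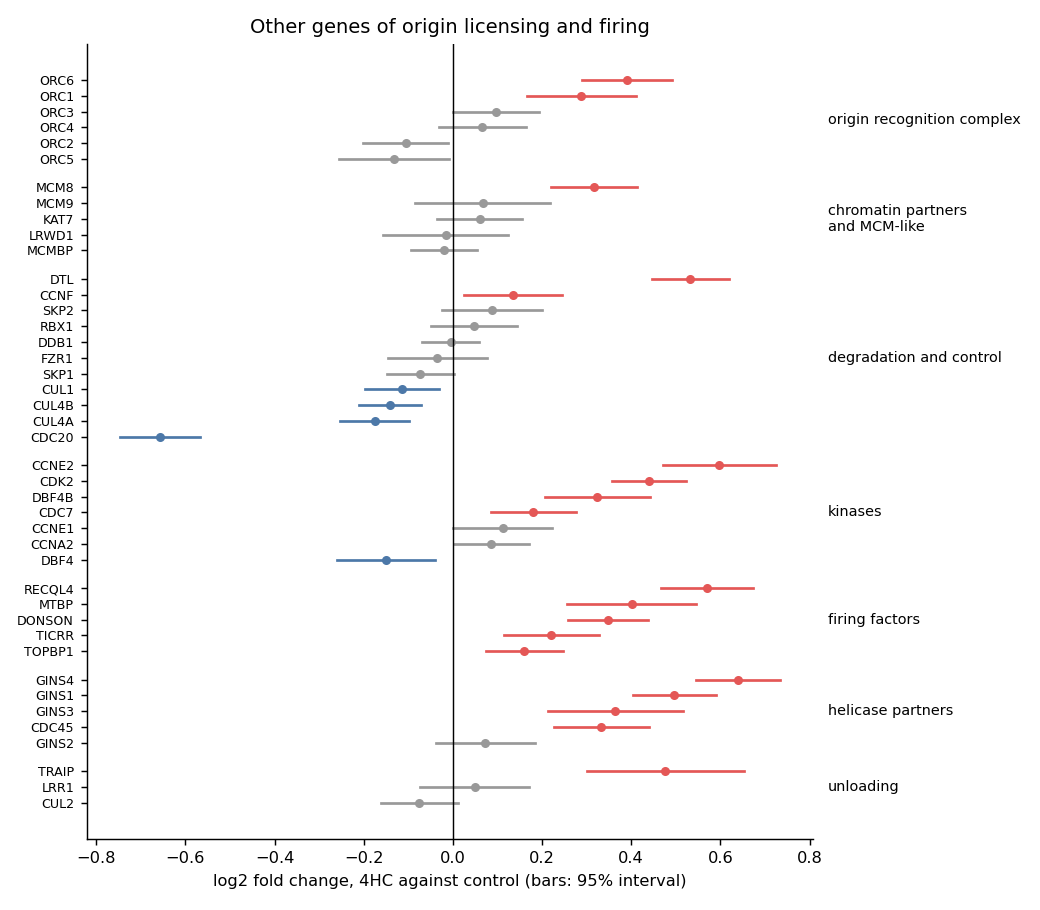
Log2 fold change with 95% interval of the 42 other genes tested, by their role in licensing, firing and unloading, in red for rises and blue for falls at an adjusted p-value under 0.05 and in grey otherwise. All 5 firing factors lie to the right of zero, and CDC20 at -0.66 is farthest to the left.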

How the data were processed

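RNA-seq of 3 control and 3 4HC-treated COV434 samples was used, grouped by their labels. The submitters' processing notes list SOAPnuke, HISAT2, Bowtie2, RSEM 1.3.1 and GRCh38.p13, without their roles. The authors deposited expected counts, estimated reads that need not be whole (85.5% were), for 16798 genes and 79213 transcripts. The deposited TPM and FPKM values were scaled by the authors to length and library size. A second gene table held the same values, and columns of the authors' DESeq2 comparison (fold changes, p- and q-values) were not used.

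Counts were rounded, and the edgeR package 4.0.16 (R 4.3.3) was applied with TMM scaling, filterByExpr and a quasi-likelihood test of 4HC against control with no covariate, with Benjamini-Hochberg adjustment over the 12368 genes or 42216 transcripts tested. Library totals were between 16133786 and 16702316 counts, at which 3 counts, the most that a count of 0 allows, correspond to 0.180 to 0.186 CPM. Shares and ratios were tested by exact permutation of the samples. Motifs were searched in RefSeq promoter windows of GRCh38.p14. The tests were run first on simulated counts. Of the smaller changes put in, a log2 change of 0.5, 92.5% were recovered for genes and 55% for transcripts. Of the main licensing genes that passed the test, only CDT1 changed by more than this. The others changed by 0.14 (MCM2) to 0.47 (GMNN) in size, and recovery of changes that small was not tested. The same spread was simulated for genes and for transcripts, near that estimated for genes (0.0277) and far below that for transcripts (0.724). The simulation therefore does not show how the transcript test performs on these data. Python 3.11.15 was used for tables and figures.

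The 10 genes, the list of 44 and the tests were chosen with earlier results of these data known. The rule for named genes took the 10 genes, the ORC genes, the largest rise and fall that passed in each group of the list, the most abundant transcript of each gene and transcripts that passed against their gene, and the 5 genes nearest in pattern to the ring. Other named genes were chosen after their values were seen. Alternatives were DESeq2 1.42.0, its size factors within edgeR, library size only, no filter, a minimum of 10 counts, the replicate number as a block, FPKM for TPM and leaving out each sample.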

Additional observations from a re-analysis of the deposited data

How the results depend on the processing

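Over 12 alternatives, 117 of the 120 values of the 10 genes kept their direction and side of the threshold, and 8 genes did so under every one. The exceptions were MCM2 without 4HC replicate 1 (leave-one-out log2 fold change 0.10 to 0.17) and MCM5, which was called in no alternative and turned to 0.0032 with library size only and to 0.037 without 4HC replicate 3 (leave-one-out -0.056 to 0.037). Genes at a fold change of 2 were 0 to 1 with a sample left out. The list's falls were 3 with library size only and 3 to 6 with a sample left out. Library size only took the share of rises among all calls from 52.9% to 61.1%. Member transcripts called were 0 with the replicate block and 0 to 1 with a sample left out. The causes were not tested. Same-numbered samples did not deviate together (correlation 0.0087 to 0.0694 over genes), and the replicate block changed no gene call among the 10 and left 18 rises and 5 falls in the list, with the call of CCNF lost.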

Other observations

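Over the 6 samples, the mean of MCM2 to MCM7 on the log2 scale lay 0.09, 0.07 and 0.0040 above the control mean in 4HC replicates 1 to 3. Of 10263 other genes with at least 5 CPM, SMPD4, SLC25A3, PLK2, NUCB1 and RNF25 were nearest to this pattern, with root mean square differences of 0.0130 to 0.0153 on the log2 scale. None of the 5 passed the test (edgeR, adjusted p of 0.221 to 0.645). They were picked from these same values for nearness to a small change, so this is no separate result.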
